A study of Caenorhabditis elegans with 21 samples.

Results

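The total RNA of young adult *Caenorhabditis elegans* that carried the P240L change in OMA-1 was compared with that of adults without it. The input libraries of 2 strains were taken, those of *oma-1(P240L)::gfp* (labelled oma-1ts-gfp) and those of *oma-1::gfp*, with 2 libraries each, so that 4 of the 21 samples of the series entered the comparison. An input library holds the RNA of the whole animals, set aside before OMA-1::GFP was purified, and no purified RNA was used in the test. In both strains the GFP sequence had been joined to *oma-1* at its own place on chromosome IV by CRISPR/Cas9 editing, so every group carried the tag, and animals without it were not analysed here. The *oma-1(P240L)::gfp* strain carries the change of the *oma-1(zu405)* allele in addition. Each group rests on 1 edited line, and each sample held 100000 synchronized animals, grown at 25 °C from the L1 stage to early young adults. Where the strains differ at other places in the genome, this cannot be told apart from the change in OMA-1. The inputs of a further strain, *fzy-1(D433N);oma-1(P240L)::gfp*, are given beside the results as levels only. They were not tested here, and any distance between them and *oma-1::gfp* rests on the same *oma-1::gfp* libraries.

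OMA-1 and its paralog OMA-2 are CCCH zinc finger proteins that bind mRNAs in growing oocytes and hold back their translation. They act redundantly in the maturation of oocytes, and both are normally destroyed soon after fertilization. The P240L change is known to keep OMA-1 in the embryo. An adult hermaphrodite holds a gonad with germline stem cells at its end, then meiotic cells and oocytes, and a store of sperm that was made before adulthood. Most of its remaining RNA comes from the intestine, the epidermis, muscle and neurons. A change in OMA-1 could therefore be looked for in the germ cells, where the protein acts, and in the somatic tissues.

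The deposited values are RPKM, reads scaled by the length of the gene and by the depth of the library, and their read depth is unknown. Between 15146 and 15636 genes were listed above 0 in each of the 4 libraries. The libraries of a strain correlated across genes with Pearson r of 0.986 in *oma-1::gfp* and 0.991 in *oma-1(P240L)::gfp*, and libraries of different strains with r from 0.943 to 0.948. The labels do not say whether the 2 libraries of a strain came from separate cultures, so p-values measure only the spread between these libraries. The labelled material was checked against markers. Oocyte mRNAs were among the most abundant, with *pos-1* at 1624 and 1208 RPKM in *oma-1::gfp* and 1298 and 1267 RPKM with the P240L change, and the adult collagen *col-19* was at 709.8 and 749 RPKM in *oma-1::gfp* and 867 and 917 RPKM with the P240L change. The coelomocyte marker *unc-122* stayed at or below 0.319 RPKM in all 4 libraries. The P240L change is a substitution in the protein, so the level of *oma-1* does not check the strain labels.

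In 2 or more of the 4 libraries, 10032 genes reached 1 RPKM and were tested, and 443 were higher and 278 were lower in the *oma-1(P240L)::gfp* inputs. That is 4.42% called higher and 2.77% called lower among all genes tested. The test was limma on log2(RPKM + 1), and a gene was called at an adjusted p below 0.05 and a log2 fold change beyond 1 in either direction. An adjusted p below 0.05 alone was reached by 1876 genes, and an unadjusted p below 0.05 by 3310 genes. Over all genes the log2 fold changes had a median of −0.03, and 0 of the 721 called genes had overlapping groups. Among the called genes, 174 of those higher were below 1 RPKM in both *oma-1::gfp* libraries, and 107 of those lower were below 1 RPKM in both *oma-1(P240L)::gfp* libraries, so they entered the test through their higher group and had to differ. The balance of the directions was not stable. It shifted with the strain from which a library was left out, whichever of its 2 libraries that was. Without replicate 2 of *oma-1(P240L)::gfp*, 271 genes were higher and 315 were lower, and without replicate 1 of *oma-1::gfp*, 441 were higher and 183 were lower. With 1 library left out, the other library of its strain cannot bring a gene into the test alone, since 2 libraries with 1 RPKM are needed, which lowers such counts by construction. In these bulk samples, a change in the number of cells of a type and a change in the RNA per cell cannot be told apart.

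**Figure D1:**
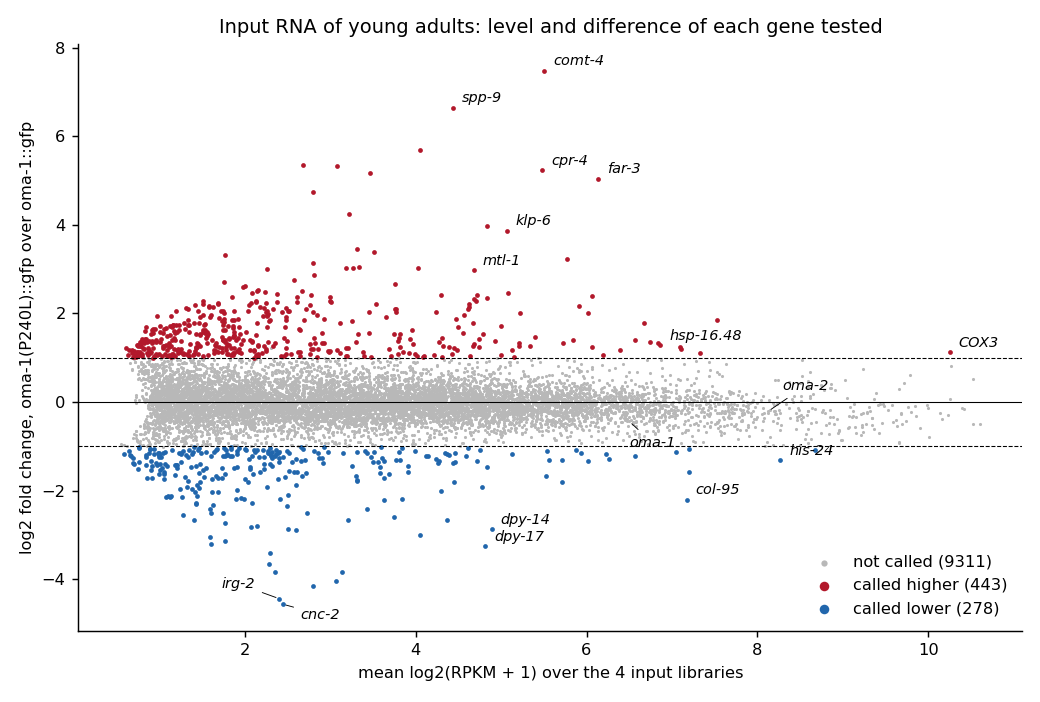
The mean level of each of 10032 genes over the 4 input libraries, as log2(RPKM + 1), against its log2 fold change between *oma-1(P240L)::gfp* and *oma-1::gfp*. Red points are the 443 genes called higher, blue points the 278 called lower, and the dashed lines mark a log2 fold change of 1 in each direction, within which *oma-1* and *oma-2* lie.

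Among genes with at least 10 RPKM in both libraries of the higher group, the 10 largest changes in each direction were taken. The largest increases were those of genes for small-molecule metabolism, proteolysis and lipid binding. The gene *comt-4* (WBGene00021491, chromosome V, 2049217 to 2050185 in WBcel235), of the catechol-O-methyltransferase family, had 2.26 and 2.52 RPKM in the *oma-1::gfp* inputs and 644 and 566 RPKM in the *oma-1(P240L)::gfp* inputs. Its log2 fold change was 7.48 ± 0.13 (standard error), the largest of all genes tested (limma adjusted p = 8.52e-09). Its neighbour *comt-5*, of the same family, had 1.36 and 1.26 RPKM against 131 and 105 RPKM, a log2 fold change of 5.68 ± 0.15. The third gene of this stretch of chromosome V, *comt-3*, had 5.91 and 8.05 RPKM against 24.9 and 19.1 RPKM (limma adjusted p = 0.000756). The 3 genes lie next to each other among the genes tested, and all 3 were called higher. *comt-4* reached 53.9 and 48.3 RPKM in the *fzy-1(D433N);oma-1(P240L)::gfp* inputs, above *oma-1::gfp* and below *oma-1(P240L)::gfp*, and *comt-5* was at 5.05 and 2.33 RPKM. The comt genes were grouped after their values were seen.

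Members of the spp family, which code for saposin-like proteins, came next. *spp-9* (WBGene00004994, chromosome X, 11487784 to 11488203) had 1.01 and 1.33 RPKM in *oma-1::gfp* and 196 and 237 RPKM in *oma-1(P240L)::gfp*, a log2 fold change of 6.64 ± 0.15 (limma adjusted p = 5.02e-08). *spp-12* had 0.858 and 0.847 RPKM against 58.8 and 72.4 RPKM, a log2 fold change of 5.16 ± 0.16. Over the family, 4 of 20 tested members (20%) were called higher and 0 lower, beside 4.42% and 2.77% of all genes. The median log2 fold change of the family was 0.04. Of the 4, 2 were below 1 RPKM in both *oma-1::gfp* libraries, so they entered the test through their higher group. Abundant members were not called, such as *spp-5* with 311 and 311 RPKM against 493 and 496 RPKM and *spp-14* with 208 and 174 RPKM against 163 and 154 RPKM. With either library of *oma-1(P240L)::gfp* left out, 2 of 18 tested members were higher.

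*cpr-4*, a cathepsin B-like cysteine protease of the intestine, had 4.81 and 8.11 RPKM against 255 and 290.4 RPKM and a log2 fold change of 5.23 ± 0.20 (limma adjusted p = 8.68e-07). *far-3*, of the fatty acid and retinol binding proteins, had 11 and 11.5 RPKM against 372 and 432.6 RPKM, a log2 fold change of 5.04 ± 0.13. *far-5* had 6.06 and 6.35 RPKM against 112 and 111 RPKM, while the most abundant member of the family, *far-2*, had 1299 and 1086 RPKM against 1234 and 1257 RPKM and was not called. The *fzy-1(D433N);oma-1(P240L)::gfp* inputs held 48.7 and 52.04 RPKM of *cpr-4*, 229 and 162 RPKM of *far-3* and 48.0 and 45.2 RPKM of *far-5*, in each case between the other strains. *cpt-3*, of the carnitine palmitoyltransferases that carry fatty acids into mitochondria, had 1.18 and 1.09 RPKM against 37.3 and 42.2 RPKM. *fat-5*, a fatty acid desaturase named after its values were seen, had 2.73 and 2.33 RPKM against 26.5 and 29.5 RPKM (limma adjusted p = 6.00e-06).

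The remaining genes of the 10 largest increases code for conjugating enzymes. *ugt-3*, a UDP-glucuronosyltransferase, was listed at 0 in both *oma-1::gfp* inputs and had 37.4 and 42.6 RPKM in the *oma-1(P240L)::gfp* inputs (limma adjusted p = 2.35e-07). *gst-21*, a glutathione S-transferase, had 0.335 and 0.330 RPKM against 56.1 and 49.5 RPKM, and *gst-35* of the same family had 0.380 and 0.300 RPKM against 32.0 and 38.1 RPKM. In the *fzy-1(D433N);oma-1(P240L)::gfp* strain they were at 0.736 and 0.939 RPKM for *ugt-3*, 1.09 and 2.27 RPKM for *gst-21* and 6.06 and 10.7 RPKM for *gst-35*. Across 79 tested genes of the cyp, ugt and gst families of xenobiotic metabolism, 15 (18.99%) were higher and 7 (8.86%) lower. Over all genes tested, 4.42% were higher and 2.77% lower. The median log2 fold change of these families was 0.25, beside −0.03 over all genes. The most abundant members, *gst-7* with 80.0 and 75.4 RPKM against 91.5 and 83.9 RPKM and *gst-1* with 61.9 and 85.8 RPKM against 78.0 and 76.9 RPKM, were not called. Of the 15 higher, 9 were below 1 RPKM in both *oma-1::gfp* libraries. Between 2 and 16 were higher with 1 library left out, the fewest without replicate 2 of *oma-1(P240L)::gfp*.

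The 10 largest decreases include an antimicrobial peptide gene, 2 infection response genes and a cuticle collagen gene. *cnc-2* (WBGene00000556, chromosome V, 1449665 to 1450183), a caenacin peptide made in the epidermis, had 17.8 and 36.01 RPKM in *oma-1::gfp* and 0.251 and 0 RPKM in *oma-1(P240L)::gfp*, a log2 fold change of −4.56 ± 0.30 (limma adjusted p = 2.52e-05). The infection response gene *irg-2* (WBGene00016783, chromosome V, 4042181 to 4043601) had 23.98 and 23.4 RPKM against 0.0956 and 0.179 RPKM, a log2 fold change of −4.44 ± 0.17, and *irg-1* had 20.1 and 16.55 RPKM against 0.827 and 0 RPKM. In the *fzy-1(D433N);oma-1(P240L)::gfp* inputs these genes were not alike. *irg-2* was there at 18.6 and 18.9 RPKM, near its level in *oma-1::gfp*, *irg-1* at 5.18 and 3.60 RPKM, and *cnc-2* at 0.219 and 0.524 RPKM, near its level in *oma-1(P240L)::gfp*.

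*dpy-17* (WBGene00001076, chromosome III, 5107330 to 5108492), a cuticle collagen needed for normal body shape, had the highest level among the 10 largest decreases. It was at 95.8 and 77.5 RPKM in *oma-1::gfp* and at 9.17 and 7.18 RPKM in *oma-1(P240L)::gfp*, a log2 fold change of −3.26 ± 0.16 (limma adjusted p = 4.54e-06), and at 115 and 107 RPKM in the *fzy-1(D433N);oma-1(P240L)::gfp* strain. *drd-10* had 38.7 and 26.6 RPKM against 1.82 and 0.929 RPKM, and 1.73 and 0.690 RPKM in the *fzy-1(D433N);oma-1(P240L)::gfp* strain. The other 5 genes are known by sequence names. Y58A7A.5 had 23.9 and 33.2 RPKM against 0.635 and 0.670 RPKM, C06B3.7 30.2 and 36.3 RPKM against 1.19 and 0.941 RPKM, and C49G7.10 12.9 and 20.7 RPKM against 0.480 and 0.270 RPKM. F13A7.11 had 13.4 and 16.8 RPKM against 0.275 and 0.775 RPKM and F53B2.8 42.5 and 49.5 RPKM against 4.88 and 4.78 RPKM. Of these 5, C49G7.10 and F53B2.8 were at 16.9 and 23.3 RPKM and 69.4 and 96.5 RPKM in the *fzy-1(D433N);oma-1(P240L)::gfp* inputs, within or above the range of *oma-1::gfp*. The size of a fold change of a gene near 0 depends on the value of 1 RPKM added before the logarithm. With 0.1 RPKM in its place, the log2 fold change was −7.09 for *cnc-2*, −6.67 for *irg-2* and −5.91 for *irg-1*.

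**Figure D2:**
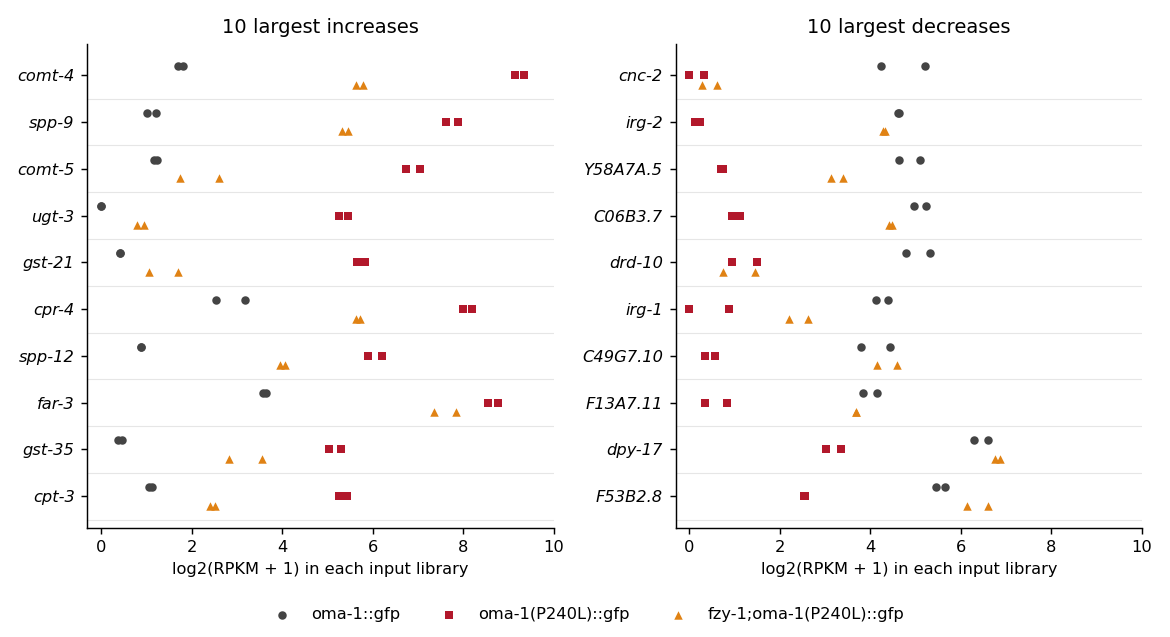
The level of each of the 20 genes with the largest increases and decreases, as log2(RPKM + 1), in each of the 6 input libraries of 3 strains, with 1 point per library. In all 20 genes the red squares of *oma-1(P240L)::gfp* are apart from the dark grey circles of *oma-1::gfp*, and the orange triangles of *fzy-1(D433N);oma-1(P240L)::gfp*, which were not tested, lie at different places between or beyond them.

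In 7 lists of genes that act in oocytes and dividing germ cells, 0 members were called, where 7.19% of all genes tested were called in either direction. *oma-1* itself (WBGene00003864, chromosome IV, 8888976 to 8890999) had 121 and 89.5 RPKM in *oma-1::gfp* and 77.8 and 75.8 RPKM in *oma-1(P240L)::gfp*. The groups did not overlap, yet the log2 fold change of −0.43 ± 0.16 did not pass (limma adjusted p = 0.0884). *oma-2* (WBGene00003865, chromosome V, 8029439 to 8031214) had 349 and 257 RPKM against 257 and 260.3 RPKM, with overlapping groups and a log2 fold change of −0.21 ± 0.17 (limma adjusted p = 0.423). *oma-1* stood at 104.4 and 69.98 RPKM and *oma-2* at 290.0 and 191 RPKM in the *fzy-1(D433N);oma-1(P240L)::gfp* inputs.

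Of 22 RNA regulators of the oocyte, 0 were called, and their log2 fold changes lay between −0.86 and 0.95 with a median of −0.17. The most abundant were *pos-1*, *spn-4* and *car-1*, the first 2 of which direct cell fates in the early embryo. *spn-4* had 1115 and 799 RPKM against 881 and 899 RPKM, with overlapping groups, and *car-1*, a component of RNA granules, had 389.9 and 411 RPKM against 324 and 319 RPKM. The highest fold change of this list was that of the PUF protein gene *puf-5*, with 66.8 and 103 RPKM against 167 and 157 RPKM and a log2 fold change of 0.95 ± 0.19, close to the limit (limma adjusted p = 0.00929). The lowest was that of *cgh-1*, an RNA helicase that guards maternal mRNAs, with 92.7 and 143 RPKM against 61.0 and 65.0 RPKM (log2 fold change −0.86 ± 0.19, limma adjusted p = 0.0138). Both were named after their values were seen. Among 14 genes of the eggshell and the oocyte surface, 0 were called and the log2 fold changes lay between −0.58 and 0.42. The chondroitin proteoglycan genes *cpg-2* and *cpg-1* had 1196 and 772 RPKM against 811 and 838 RPKM and 420.4 and 399.7 RPKM against 518 and 511 RPKM.

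These lists are short, and at the share of all genes a list of 10 or 11 would hold fewer than 1 called gene. Of 27 tested genes of meiotic chromosomes, 0 were called, with log2 fold changes between −0.57 and 0.53 and a median of −0.03. Examples are *him-3* of the chromosome axis with 101 and 87.05 RPKM against 84.5 and 90.8 RPKM, and *syp-2* of the synaptonemal complex with 56.9 and 53.8 RPKM against 61.5 and 58.7 RPKM. None of 10 genes of the germline stem cells was called, and their median was −0.26. There *sygl-1*, a target of the Notch receptor GLP-1, had 167 and 144 RPKM against 115 and 97.1 RPKM, with a log2 fold change of −0.54 ± 0.14 whose adjusted p of 0.0288 in limma passed while its size did not. Likewise 0 of 11 P granule genes, 0 of 20 genes of the cell cycle and replication, and 0 of 11 genes of the anaphase promoting complex were called. *fzy-1*, the activator of that complex, had 87.3 and 79.8 RPKM against 64.6 and 68.0 RPKM. Without replicate 2 of *oma-1::gfp*, 1 of the 22 oocyte RNA regulators was called higher and 1 lower, and without its replicate 1, 1 was lower. The absence of a call does not show equal levels.

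**Figure D3:**
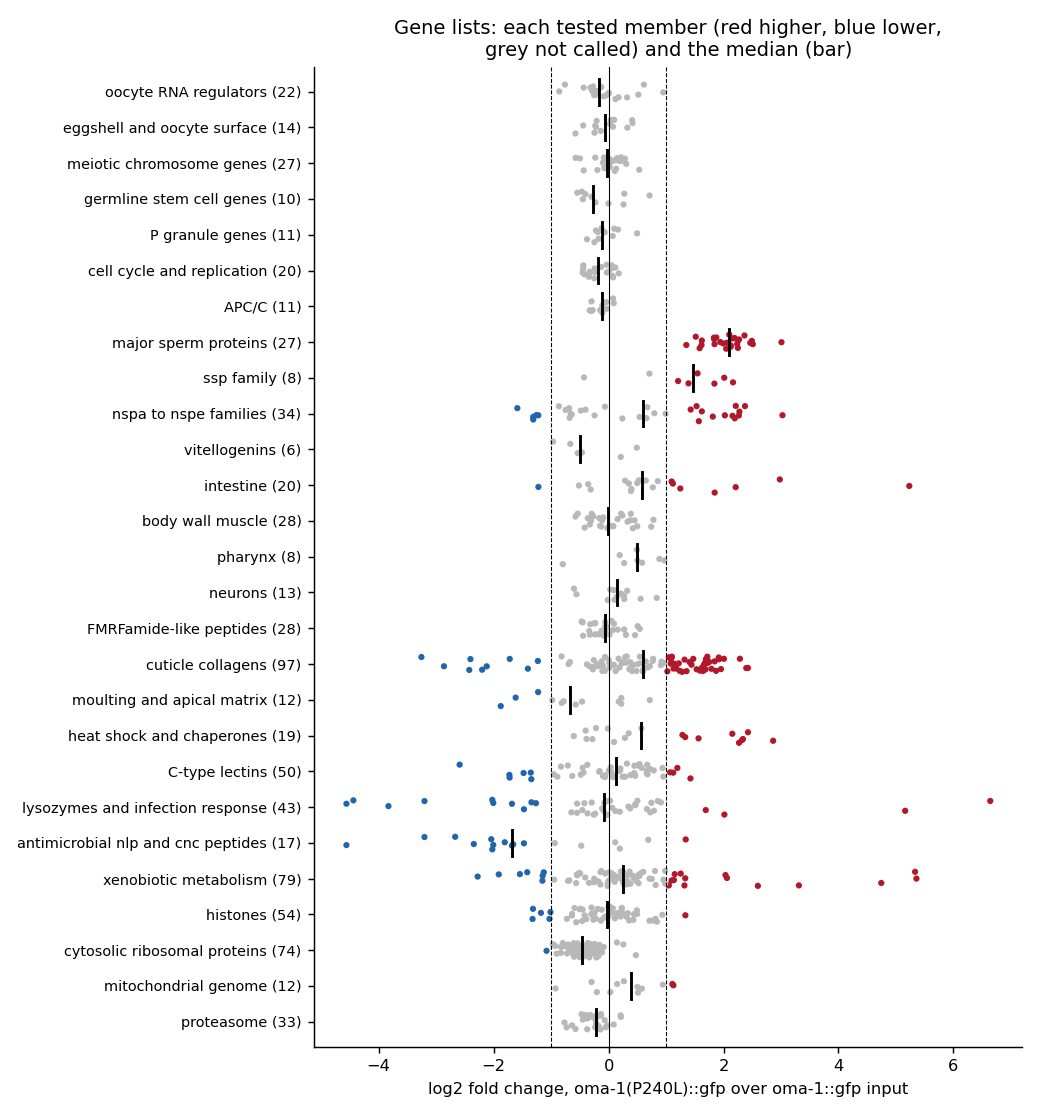
The log2 fold change of each tested member of 27 gene lists, with the number tested in parentheses and the median as a bar. Oocyte, meiotic and stem cell lists lie within the dashed lines at a log2 fold change of 1, whereas all 27 tested major sperm protein genes lie above, and the collagens and the lysozyme and infection response genes reach out on both sides.

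Published gene classes deposited with the data cover many more genes than these lists. In the classes of Ortiz, oogenic genes are those higher in female than in male germlines, spermatogenic genes the reverse, and gender neutral genes are alike in both. Of 1348 oogenic genes tested, 8 (0.594%) were higher and 12 (0.890%) lower, less than the 4.42% and 2.77% of all genes. Of 695 spermatogenic genes, 93 (13.4%) were higher and 6 (0.863%) lower. Gender neutral genes gave 144 higher and 57 lower of 4596, and genes in no class 198 higher and 203 lower of 3393. In the classes of Han, 80 higher and 25 lower were found among 3688 germline-enriched genes, and 162 higher (6.31%) and 117 lower (4.56%) among 2566 soma-enriched genes. The medians of all these classes lay between −0.06 and 0.11. Many spermatogenic genes are low in adults, and 1260 of 1955 were not tested. Of the 93 called higher, 50 were below 1 RPKM in both *oma-1::gfp* libraries, and without replicate 1 or replicate 2 of *oma-1(P240L)::gfp*, 45 of 601 or 43 of 595 were higher. Oogenic genes gave 18 higher and 18 lower without replicate 2 of *oma-1::gfp*. Of the germline-enriched genes, 45 or 43 were higher without replicate 1 or 2 of *oma-1(P240L)::gfp*. Of the genes in no class, 107 were lower without replicate 1 and 121 without replicate 2 of *oma-1::gfp*, and 116 were higher without replicate 2 of *oma-1(P240L)::gfp*. Soma-enriched genes gave 78 lower without replicate 1 of *oma-1::gfp*.

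**Figure D4:**
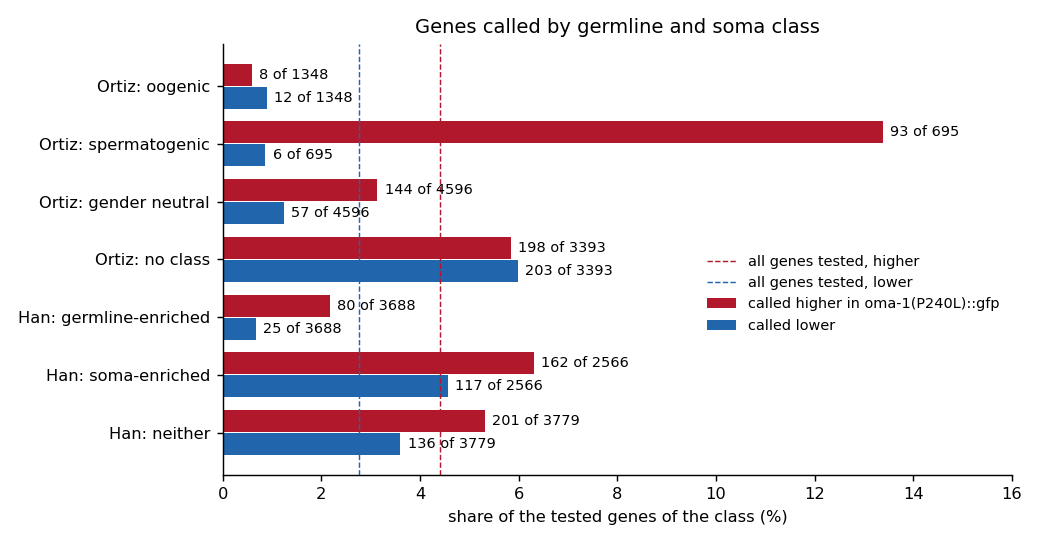
The share of tested genes called higher (red) or lower (blue) in the *oma-1(P240L)::gfp* inputs in each published germline or soma class, with the counts at the bars. The spermatogenic class has 93 of 695 genes called higher, against a share of 4.42% over all genes tested (red dashed line), and the oogenic class has 8 of 1348.

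The major sperm protein genes were higher throughout. The major sperm proteins form the cytoskeleton that drives the crawling sperm of nematodes, and they also signal to oocytes. Of 30 genes of this family in the files, 27 were tested, and 27 of the 27 were called higher, beside 4.42% of all genes. The log2 fold changes of the 27 lay between 1.35 and 3.01, with a median of 2.1. *msp-31* had 2.72 and 2.54 RPKM in *oma-1::gfp* and 16.13 and 16.9 RPKM in *oma-1(P240L)::gfp*, a log2 fold change of 2.27 ± 0.16 (limma adjusted p = 3.72e-05). *msp-36* had 1.93 and 3.68 RPKM against 18.1 and 15.3 RPKM, and *msp-152*, with the largest change, 0.762 and 0.627 RPKM against 12.2 and 13.1 RPKM. Summed over the family, the level was 38.3 and 36.7 RPKM in *oma-1::gfp*, 249.5 and 240.7 RPKM in *oma-1(P240L)::gfp*, and 2435 and 1159 RPKM in the *fzy-1(D433N);oma-1(P240L)::gfp* strain. The 3 strains thus did not overlap, and the strain with both mutations had the highest level. Of the 27 genes, 6 were below 1 RPKM in both *oma-1::gfp* libraries, and without either library of *oma-1(P240L)::gfp* 21 genes were tested and 21 were higher. The copies of this family are near-identical, so reads may have been shared among them and their values are not independent.

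In the ssp family of sperm-specific proteins, 6 of 8 tested members were higher and 0 lower, beside 4.42% and 2.77% of all genes. Among the 6 is *ssp-10*, with 0.546 and 1.35 RPKM against 7.39 and 4.56 RPKM. Of these 6, 5 were below 1 RPKM in both *oma-1::gfp* libraries, and 1 remained without either library of *oma-1(P240L)::gfp*. *ssq-1*, a sperm-specific protein gene named after its values were seen, had 2.81 and 2.46 RPKM against 13.6 and 12.8 RPKM, and 45.7 and 20.9 RPKM in the *fzy-1(D433N);oma-1(P240L)::gfp* strain. Of the sperm function genes, 5 were tested and 0 called, too few to set against the 7.19% of all genes, and 22 of the 27 in the files were too low to test. For example *gsp-3*, a phosphatase of sperm, was at 0 and 0.0546 RPKM and 0.428 and 0.321 RPKM, against 5.46 and 6.62 RPKM in the *fzy-1(D433N);oma-1(P240L)::gfp* strain. Regulators of spermatogenesis were not called either (0 of 4 tested), with *fog-1* at 17.97 and 13.8 RPKM against 10.8 and 9.46 RPKM (log2 fold change −0.60 ± 0.17, limma adjusted p = 0.0371). With the msp, ssp and nsp families left out, 52 of 652 tested spermatogenic genes (7.98%) were higher and 6 lower. Over all genes tested, 4.42% were higher and 2.77% lower. Of the 52, 36 were below 1 RPKM in both *oma-1::gfp* libraries, so they entered the test through their higher group.

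The nematode-specific peptide families nspa to nspe code for small proteins. Of 34 tested genes, 13 (38.2%) were higher, all of them in nspa and nspd, and 5 (14.7%) were lower, all of them in nspc. Over all genes tested, 4.42% were higher and 2.77% lower. Of the 13, 5 were below 1 RPKM in both *oma-1::gfp* libraries, so they entered the test through their higher group. *nspa-3* had 3.87 and 1.09 RPKM against 22.2 and 28.1 RPKM and *nspd-2* 2.25 and 2.78 RPKM against 15.7 and 18.8 RPKM, with 119.1 and 57.4 RPKM of *nspd-2* in the *fzy-1(D433N);oma-1(P240L)::gfp* strain. The called nspc genes include *nspc-16*, *nspc-17*, *nspc-18* and *nspc-19*, a run of neighbours on chromosome X with log2 fold changes from −1.59 to −1.26. The most abundant member, *nspc-10*, had 56.2 and 35.6 RPKM against 29.4 and 25.6 RPKM and was not called. Members of each family are closely related, so reads may have been shared among them. Without replicate 1 of *oma-1(P240L)::gfp*, 8 were higher and 4 lower.

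Among the lists for intestine, muscle, pharynx, neurons and somatic gonad, only that of the intestine held called genes. The intestine takes up food and makes yolk, digestive enzymes and storage lipids. Of 20 tested intestinal genes, 7 (35%) were higher and 1 (5%) was lower, beside 4.42% and 2.77% of all genes. The median log2 fold change of the list was 0.59. The cathepsin B-like proteases *cpr-1*, *cpr-4* and *cpr-5* were all higher, *cpr-1* with 99.6 and 93.5 RPKM against 291 and 419.7 RPKM and *cpr-5* with 9.03 and 12.1 RPKM against 49.6 and 54.6 RPKM. *cpr-6* of the same family was at 138 and 127 RPKM and 91.5 and 92.8 RPKM (log2 fold change −0.52 ± 0.12, limma adjusted p = 0.0193) and was not called. The metallothioneins, which bind metal ions, were higher too, *mtl-1* with 6.97 and 9.47 RPKM against 58.2 and 86.7 RPKM and *mtl-2* with 8.29 and 10.6 RPKM against 23.9 and 18.7 RPKM. *pept-1*, a peptide transporter, had 0.653 and 0.860 RPKM against 2.88 and 3.47 RPKM. It was below 1 RPKM in both *oma-1::gfp* libraries, so it entered the test through its higher group. *nhx-2*, a sodium-proton exchanger that works with *pept-1*, had 1.64 and 1.56 RPKM against 4.27 and 5.03 RPKM. The ferritin gene *ftn-1*, which stores iron, was the member called lower, with 25.6 and 25.5 RPKM against 7.38 and 14.5 RPKM, and it was not called without replicate 1 of *oma-1(P240L)::gfp*. In the *fzy-1(D433N);oma-1(P240L)::gfp* strain, *cpr-1* was at 175 and 168 RPKM and *mtl-1* at 39.4 and 48.5 RPKM, above *oma-1::gfp*, while *cpr-5* was at 6.82 and 8.47 RPKM, below it.

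The vitellogenins, yolk proteins that the intestine secretes and oocytes take up, did not follow. None of the 6 was called, and their log2 fold changes lay between −0.96 and 0.49 with a median of −0.50. *vit-3* was nearest to a call, with 577 and 440.4 RPKM against 264 and 252 RPKM and a log2 fold change of −0.96 ± 0.16 (limma adjusted p = 0.00436). It passed without replicate 2 of *oma-1::gfp*, at −1.16. *vit-2* had 475 and 452 RPKM against 325 and 347 RPKM, and 602 and 603 RPKM in the *fzy-1(D433N);oma-1(P240L)::gfp* strain, where it was highest. Summed over the family, the level was 1653 and 1600 RPKM in *oma-1::gfp* and 1114 and 1140 RPKM in *oma-1(P240L)::gfp*.

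The lists for muscle, pharynx, neurons and the somatic gonad held no called member, where 7.19% of all genes tested were called. At that share, a list of 5, 8 or 13 genes would hold fewer than 1 called gene. Of 28 tested genes of the body wall muscle, 0 were called, and their median log2 fold change was 0.00. The actin gene *act-4* had 621 and 682 RPKM against 445 and 428 RPKM, and the troponin I gene *unc-27* 364 and 322 RPKM against 434 and 428 RPKM. In the pharynx, 0 of 8 were called, although 7 of 8 lay above 0 with a median of 0.50, such as *tni-4* with 9.52 and 12.01 RPKM against 20.5 and 20.7 RPKM (log2 fold change 0.88 ± 0.15, limma adjusted p = 0.0045). The exception was *pha-4*, the factor that specifies pharyngeal cells, with 7.32 and 7.35 RPKM against 3.10 and 4.62 RPKM. Neurons gave 0 of 13, and 0 of 28 genes for FMRFamide-like peptides were called. *snb-1*, synaptobrevin of synaptic vesicles, had 44.8 and 63.1 RPKM against 97.2 and 94.6 RPKM and a log2 fold change of 0.84 ± 0.16. The kinesin gene *klp-6*, known from ciliated sensory neurons and named after its values were seen, was in no list and had 6.13 and 9.84 RPKM against 109.5 and 147 RPKM (log2 fold change 3.86 ± 0.21, limma adjusted p = 9.99e-06), with 3.47 and 3.43 RPKM in the *fzy-1(D433N);oma-1(P240L)::gfp* strain. The gonadal sheath and spermatheca gave 0 of 5. Without replicate 2 of *oma-1::gfp*, *tni-4* and *snb-1* were called higher, at 1.04 and 1.08, as was 1 muscle gene. *pha-4* was called lower, at −1.02, and 1 FMRFamide-like peptide gene higher without replicate 2 of *oma-1(P240L)::gfp*. Without its replicate 1, *phat-4*, a pharyngeal gland gene, was called higher, at 1.08. The coelomocyte list had no tested member.

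Cuticle genes moved in both directions. The cuticle is a collagen-rich coat that the epidermis rebuilds at each moult, and its collagen genes are switched on in turn. Of 97 tested cuticle collagens among 177 in the files, 39 (40.2%) were higher and 9 (9.28%) lower, beside 4.42% and 2.77% of all genes. The median log2 fold change of the collagens was 0.60. Most of the higher members were low to moderate in level. *col-139*, singled out after its values were seen, had 24.2 and 33.0 RPKM against 146 and 161 RPKM, and *col-81* 5.59 and 9.87 RPKM against 42.2 and 46.8 RPKM, a log2 fold change of 2.43 ± 0.22. Of the 39, 24 were below 1 RPKM in both *oma-1::gfp* libraries, among them *dpy-13* with 0.354 and 0.233 RPKM against 5.56 and 5.04 RPKM and *dpy-5* with 0.323 and 0.446 RPKM against 3.10 and 3.65 RPKM. The most abundant collagens were not called, with *col-122* at 1239 and 1226 RPKM against 987 and 1078 RPKM and *col-106* at 1114 and 959 RPKM against 986 and 991 RPKM. Between 14 and 38 collagens were higher with 1 library left out, the fewest without replicate 2 of *oma-1(P240L)::gfp* and 15 without its replicate 1. Lower were 5 without either library of *oma-1::gfp*.

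The 9 collagens that were lower include several with known roles in body shape. Besides *dpy-17* they are *dpy-14*, *sqt-3*, *dpy-7*, *dpy-3*, *dpy-2*, *dpy-10*, *col-95* and *col-121*. *dpy-14* had 86.9 and 71.7 RPKM in *oma-1::gfp* and 10.2 and 9.79 RPKM in *oma-1(P240L)::gfp*, a log2 fold change of −2.86 ± 0.14 (limma adjusted p = 4.17e-06). *sqt-3* had 22.4 and 25.14 RPKM against 3.46 and 3.90 RPKM, and *col-95*, the most abundant of them, 343 and 277 RPKM against 68.7 and 64.04 RPKM. Of the 6 collagens of the circumferential furrows, *dpy-2*, *dpy-3*, *dpy-7* and *dpy-10* were lower, *dpy-8* had 0.708 and 1.12 RPKM against 2.30 and 1.34 RPKM and was not called, and *dpy-9* was not tested. *dpy-7* was at 6.28 and 5.75 RPKM and 0.0777 and 0.583 RPKM. This grouping was made after the values were seen, and without either library of *oma-1::gfp* 1 of 2 tested was lower. In the *fzy-1(D433N);oma-1(P240L)::gfp* inputs, these genes were not low, with 93.7 and 88.0 RPKM of *dpy-14*, 34.4 and 46.7 RPKM of *sqt-3* and 9.51 and 10.47 RPKM of *dpy-7*, above *oma-1::gfp* in both libraries. *col-95* was there between the other strains, at 196 and 144 RPKM.

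Genes of moulting and of the apical matrix under the cuticle lay on the low side. Of 12 tested, 0 were higher and 3 (25%) lower, beside 4.42% and 2.77% of all genes. The median log2 fold change of the list was −0.68. Of the 3, *lpr-3* was below 1 RPKM in both *oma-1(P240L)::gfp* libraries, so it entered the test through its higher group. *wrt-10*, a hedgehog-related gene, had 11.04 and 10.2 RPKM against 2.41 and 1.94 RPKM (log2 fold change −1.88 ± 0.17, limma adjusted p = 0.000193). *lpr-3*, a lipocalin of the apical matrix, had 5.60 and 4.37 RPKM against 0.972 and 0.912 RPKM, and *noah-1*, a zona pellucida domain protein, 3.03 and 4.36 RPKM against 1.13 and 0.858 RPKM. Their levels in the *fzy-1(D433N);oma-1(P240L)::gfp* strain were 9.65 and 8.92 RPKM, 8.23 and 6.56 RPKM and 4.66 and 7.33 RPKM in this order, the last 2 above *oma-1::gfp*. The highest member, *grl-4*, had 17.8 and 13.3 RPKM against 20.1 and 15.2 RPKM and was not called. Expression of moulting genes depends on the stage of the animals. Differences in stage between the cultures were not tested. The adult collagen *col-19* was not called (log2 fold change 0.29 ± 0.16, limma adjusted p = 0.236), which does not show that the stages were equal.

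Heat-inducible chaperones formed a further group that was higher. These proteins bind unfolded proteins, and their genes are switched on by heat-shock factor HSF-1. Of 19 genes, 9 (47.4%) were higher and 0 lower, beside 4.42% and 2.77% of all genes. The 9 are 6 genes of the small heat-shock proteins HSP-16, *hsp-70*, F44E5.4 and F44E5.5. *hsp-70* had 1.33 and 1.91 RPKM in *oma-1::gfp* and 19.4 and 16.52 RPKM in *oma-1(P240L)::gfp*, a log2 fold change of 2.86 ± 0.19 (limma adjusted p = 2.52e-05). *hsp-16.2* had 8.14 and 13.2 RPKM against 57.8 and 62.6 RPKM, and the more abundant *hsp-16.48* 57.4 and 94.3 RPKM against 173 and 189 RPKM. The *oma-1::gfp* libraries differed among themselves in this group, with *hsp-16.1* at 7.82 and 17.4 RPKM, both below the 64.6 and 62.3 RPKM of *oma-1(P240L)::gfp*. Between 8 and 9 genes were higher with 1 library left out. In the *fzy-1(D433N);oma-1(P240L)::gfp* strain the level was that of *oma-1::gfp* or lower, with 1.17 and 1.49 RPKM of *hsp-70*, 6.36 and 7.61 RPKM of *hsp-16.2* and 19.8 and 25.0 RPKM of *hsp-16.48*. Genes of the hsp-16 and F44E5 groups are near-identical pairs whose reads may have been shared.

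The chaperones that are expressed without heat were not called. *hsp-1* had 454 and 411 RPKM against 306 and 263 RPKM (log2 fold change −0.61 ± 0.15, limma adjusted p = 0.0215), and *hsp-90* 212 and 215 RPKM against 166 and 157 RPKM. *hsp-4*, the marker of unfolded proteins in the endoplasmic reticulum, had 36.1 and 43.4 RPKM against 30.1 and 30.1 RPKM, and *hsp-6*, that of mitochondria, 40.5 and 46.6 RPKM against 41.1 and 45.2 RPKM. The mRNA of the factor itself, *hsf-1*, was at 21.4 and 17.3 RPKM and 10.54 and 11.5 RPKM (log2 fold change −0.75 ± 0.15, limma adjusted p = 0.0098). *hsp-4*, *hsp-6* and *hsf-1* were named after their values were seen.

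**Figure D5:**
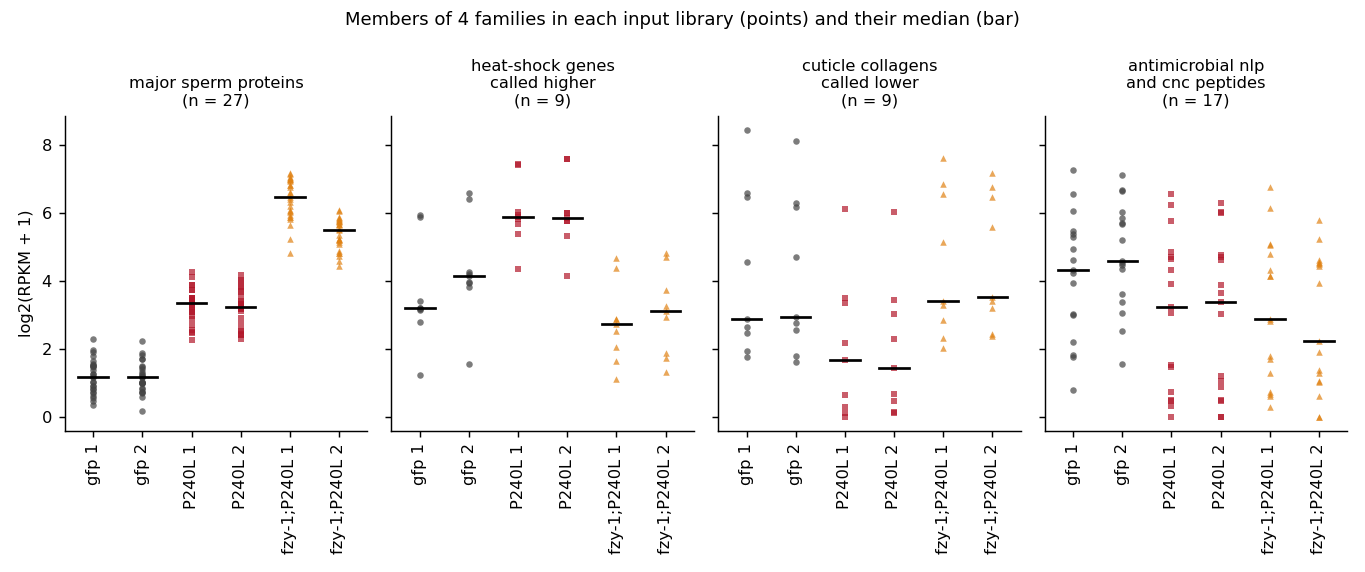
The level of members of 4 families, as log2(RPKM + 1), in the 6 input libraries, with the median as a bar. The major sperm protein genes step up from *oma-1::gfp* over *oma-1(P240L)::gfp* to *fzy-1(D433N);oma-1(P240L)::gfp*. The 9 heat-shock genes, chosen as called higher, are high in *oma-1(P240L)::gfp* and not in the strain with both mutations, and chaperones not called are not shown. The 9 collagens, chosen as called lower, are low in *oma-1(P240L)::gfp* and not in the strain with both mutations.

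Genes of defence against microbes went in both directions. Among 43 tested lysozyme, infection response, saposin-like and caenacin genes, 4 (9.30%) were higher, all 4 of them spp genes, and 10 (23.3%) lower. Over all genes tested, 4.42% were higher and 2.77% lower. Of the list, 2 of the 4 higher and 6 of the 10 lower were below 1 RPKM in both libraries of the other strain. They entered the test through their higher group. The median log2 fold change was −0.08. The lower members are 6 caenacin genes, *irg-1*, *irg-2*, *irg-8* and the lysozyme gene *lys-2*, which had 26.9 and 33.0 RPKM against 11.9 and 10.4 RPKM. The caenacin and nlp peptides, which the epidermis makes on infection and wounding, were put in 1 list after their values were seen. Of 17 tested, 11 were lower and 1 was higher. Of the 11, 5 were below 1 RPKM in both *oma-1(P240L)::gfp* libraries and entered the test through their higher group. *nlp-29* (WBGene00003767, chromosome V, 3984425 to 3984847), widely used as a reporter of this response, had 40.7 and 64.3 RPKM in *oma-1::gfp* and 7.32 and 7.09 RPKM in *oma-1(P240L)::gfp*, a log2 fold change of −2.67 ± 0.20 (limma adjusted p = 5.61e-05). *nlp-28* had 93.4 and 101 RPKM against 27.8 and 26.3 RPKM, *nlp-31* 65.6 and 99.2 RPKM against 25.0 and 24.7 RPKM and *cnc-4* 29.7 and 49.6 RPKM against 8.36 and 9.29 RPKM. *nlp-24*, the member that was higher, had 23.5 and 21.1 RPKM against 52.8 and 63.7 RPKM. Summed over the list, the level was 563.8 and 716.9 RPKM in *oma-1::gfp*, 350.0 and 325.3 RPKM in *oma-1(P240L)::gfp*, and 340.2 and 227.8 RPKM in the *fzy-1(D433N);oma-1(P240L)::gfp* strain. Here both strains with the P240L change lay below *oma-1::gfp*. Without replicate 1 or replicate 2 of *oma-1::gfp*, 6 or 7 of 12 tested were lower, and 4 of 37 in the wider list.

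C-type lectins, which bind sugars and often take part in defence, gave 4 higher (8%) and 6 lower (12%) of 50 tested, beside 4.42% and 2.77% of all genes, with 172 of 222 not tested. Without either library of *oma-1(P240L)::gfp*, 1 was higher. *clec-209* had 34.4 and 29.6 RPKM against 4.91 and 4.05 RPKM (log2 fold change −2.59 ± 0.16, limma adjusted p = 1.80e-05) and *clec-66* 10.04 and 7.20 RPKM against 2.27 and 1.53 RPKM. The abundant lectins *clec-87* and *clec-88*, both oogenic, were not called, with 683 and 566 RPKM against 729 and 705 RPKM for *clec-87*. In the pals family of the response to intracellular pathogens, 5 of 32 genes were tested, too few to set against the 7.19% of all genes. Of these 5, 3 were below 1 RPKM in both *oma-1::gfp* libraries and entered the test through *oma-1(P240L)::gfp*, among them *pals-20*. *pals-23* was lower, with 20.0 and 18.1 RPKM against 5.95 and 6.53 RPKM, as was *pals-24*, with 7.20 and 9.40 RPKM against 4.06 and 2.92 RPKM, and *pals-20* was higher, with 0.254 and 0.626 RPKM against 3.53 and 1.56 RPKM. Without replicate 2 of either strain, *pals-24* was no longer called.

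The large families of F-box, MATH and BTB genes code for adaptors of ubiquitin ligases. Of 125 tested F-box genes, 6 (4.80%) were higher and 11 (8.80%) lower, beside 4.42% and 2.77% of all genes. The lower members were low throughout, such as *fbxc-58* with 2.75 and 4.39 RPKM against 0 and 0.0561 RPKM and *fbxa-79* with 5.07 and 4.60 RPKM against 0.720 and 0.844 RPKM, and 1 of them was called without either library of *oma-1::gfp*. The 5 neighbours *fbxc-1* to *fbxc-5* on chromosome IV were higher by log2 fold changes of 1.08 to 1.10, with *fbxc-1* at 0.618 and 0.813 RPKM against 2.31 and 2.99 RPKM. Without either library of *oma-1(P240L)::gfp*, 0 F-box genes were higher, since these were below 1 RPKM in both *oma-1::gfp* libraries and were then not tested. Of 59 tested MATH and BTB genes, 2 (3.39%) were higher and 1 (1.695%) lower, not above the shares of all genes. Both higher genes were below 1 RPKM in both *oma-1::gfp* libraries, so they entered the test through their higher group. The largest change was that of *math-14*, with 0.486 and 0.480 RPKM against 6.35 and 5.57 RPKM.

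Among genes that every cell uses, the linker histone stood out. *his-24*, a histone H1, had 511 and 459 RPKM in *oma-1::gfp* and 187 and 202 RPKM in *oma-1(P240L)::gfp*, a log2 fold change of −1.32 ± 0.14 (limma adjusted p = 0.00036). It was at 505 and 393 RPKM in the *fzy-1(D433N);oma-1(P240L)::gfp* strain. The related *hil-7*, named after its values were seen, had 11.1 and 18.2 RPKM against 1.39 and 0.836 RPKM. The core histone variants *his-72* and *his-74* were not called. Of 54 tested histone genes, 1 (1.85%) was higher and 5 (9.26%) were lower, beside 4.42% and 2.77% of all genes. Without replicate 1 of *oma-1::gfp* the counts were 2 and 2, and without its replicate 2 they were 4 and 4. Most histone mRNAs lack a poly(A) tail, and many copies are near-identical.

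Cytosolic ribosomal protein genes mostly had log2 fold changes below 0. Of 74 tested, 71 had a log2 fold change below 0, the median was −0.47, and 28 had an adjusted p below 0.05 in limma, but only *rps-19* also passed the limit of 1. It had 670.0 and 523 RPKM against 309 and 253 RPKM and a log2 fold change of −1.08 ± 0.18, and it was not called without replicate 1 of *oma-1::gfp* (−0.90) or replicate 2 of *oma-1(P240L)::gfp* (−0.94). Without replicate 2 of *oma-1::gfp*, 6 ribosomal genes were lower. Summed over 75 genes, the level was 44330 and 37440 RPKM in *oma-1::gfp*, 32580 and 27170 RPKM in *oma-1(P240L)::gfp*, and 37290 and 28590 RPKM in the *fzy-1(D433N);oma-1(P240L)::gfp* strain, with libraries of a strain well apart. Proteasome genes gave 0 of 33, with a median of −0.22. RNA from the mitochondrial genome lay on the high side, with 2 of 12 genes (16.7%) higher, beside 4.42% of all genes. The median of the 12 was 0.38, and *COX3*, a subunit of cytochrome c oxidase, was at 800.0 and 846 RPKM against 1685 and 1919 RPKM. The totals of the libraries differed as well, from 298100 to 335000 RPKM. With every library set to the same total, the median of all genes moved from −0.03 to 0.05 and that of the ribosomal genes stayed below 0.

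The mRNAs enriched with OMA-1(P240L) in the *fzy-1(D433N)* background were called at shares near those of all genes. They were taken as those enriched in the purified RNA of the *fzy-1(D433N);oma-1(P240L)::gfp* strain over its own inputs, which are not among the 4 libraries compared. Of 992 such mRNAs, 822 were tested, and 26 (3.16%) were higher and 24 (2.92%) lower, near the 4.42% and 2.77% of all genes, with a median log2 fold change of −0.04. The counts fell to 17 higher without replicate 2 of *oma-1(P240L)::gfp* and to 14 lower without replicate 1 of *oma-1::gfp*. The largest changes among them were those of K09D9.1 and *nlp-29*, both lower, and of *dpsm-1*, higher with 4.89 and 3.88 RPKM against 28.4 and 38.2 RPKM. Their most abundant members, *act-4*, *clec-87* and *ctb-1*, were not called. The last is a gene of the mitochondrial genome. Not listed here were mRNAs bound by OMA-1 without the P240L change, or by OMA-1(P240L) without *fzy-1(D433N)*. Per the paper, the mRNAs found with OMA-1(P240L) were not the same with and without *fzy-1(D433N)*. Of 10 tested early zygotic genes, 0 were called, too few to set against the 7.19% of all genes. Among them, 2 were below 1 RPKM in both *oma-1::gfp* libraries and 3 in both *oma-1(P240L)::gfp* libraries. *vet-2*, which is oogenic in the classes of Ortiz, was at 3.02 and 4.98 RPKM against 3.13 and 3.61 RPKM. The content of embryos in the adults was not tested.

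Called genes were spread over all chromosomes and often lay side by side. Chromosome V held 127 of the genes that were higher and 98 of those that were lower among 1787 tested, which is 7.11% and 5.48%, and chromosome I held 53 (3.03%) and 31 (1.77%) of 1750. Within 1 Mb of *oma-1* on chromosome IV, 19 of 268 tested genes (7.09%) were higher and 6 (2.24%) lower. The shares were 5.92% and 2.81% over all of chromosome IV and 4.42% and 2.77% over all genes tested. Of the 721 called genes, 262 fell into 106 runs of neighbours called in the same direction. The longest, of 6 genes, lies on chromosome IV between 9836034 and 9853609, within the 1 Mb around *oma-1*. It holds *msp-81*, *msp-10*, *msp-56*, *nspd-2*, *ssp-10* and *ssq-1*, all higher. On chromosome V between 3978825 and 3988316 lie *nlp-34*, *nlp-31*, *nlp-30*, *nlp-29* and *nlp-28*, all lower, with log2 fold changes from −2.67 to −1.66. A short way on, between 4025047 and 4043601, follow K09D9.1, C49G7.7, C49G7.12, C49G7.10 and *irg-2*, also lower. A further run on that chromosome, between 9074784 and 9090604, holds T27E4.7 and *hsp-16.1*, *hsp-16.48*, *hsp-16.49* and *hsp-16.11*, all higher. Many of these runs are families of related genes, and reads or regulation shared within them were not tested.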

How the data were processed

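Total RNA of synchronized young adults was extracted with TRIzol, and mRNA libraries were made from it and sequenced, as the paper describes. Per the labels, reads were processed with CASAVA 1.4, HISAT2 2.0.5 and HTSeq 0.6.0, and the genome build is not given in the sources used here. The deposited values are RPKM multiplied by 1000, listed only for genes above 0, and were divided by 1000. Between 20.4% and 21.5% of the low values came within 0.02 of whole reads, so reads were not recovered and no count test was run. The log2 ratios and p-values of the authors' own comparisons and 40 further per-sample columns of the deposited tables were not used.

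Genes that reached 1 RPKM in 2 or more of the 4 input libraries were tested on log2(RPKM + 1) with limma 3.58.1 (intensity trend, R 4.3.3), with Benjamini-Hochberg adjustment over all genes tested. Fold changes on this scale understate the change of low genes. The 2 residual degrees of freedom were joined by 6.90 prior ones. For a single gene, an exact permutation test of 2 against 2 libraries cannot go below 0.333. The fit was tested on simulated data. Summaries used pandas 2.3.3 and numpy 2.4.6, and plots matplotlib 3.10.9, under Python 3.11.15.

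Genes were named by a rule: per direction, the 10 largest changes among called genes with a symbol and at least 10 RPKM in each library of the higher group, *oma-1* and *oma-2*, and per list up to 3 of the highest level and up to 3 called with the largest change. Other genes named were chosen after their values were seen. The gene lists and the comparison were chosen with earlier results of these data known. Classes of Ortiz and Han were read from a deposited table. Gene names and coordinates are those of the WBcel235 annotation, matched by gene ID for 18553 of 18887 genes. The mRNAs enriched with OMA-1(P240L) are 992 of 10849 genes tested. They were called higher in purified RNA of the *fzy-1(D433N);oma-1(P240L)::gfp* strain over its input by the same test. Alternatives changed the pseudocount, the filter, the scaling, the libraries and the model.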

Additional observations from a re-analysis of the deposited data

How the results depend on the processing

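The counts of 443 genes higher and 278 lower depended on the filter, the test and the libraries. With at least 5 RPKM required, 229 were higher and 153 lower of 6431 tested, and without a filter 322 were higher and 180 lower of 17542. A test against a log2 fold change of 1 (treat) called 111 higher and 52 lower. With 1 library left out, between 271 and 522 genes were higher and between 183 and 315 lower, where the lone library of a group is assumed to vary like those of the other group. A pseudocount of 0.1 RPKM gave 590 higher and 415 lower. Equal total RPKM per library, chosen after seeing the data, gave 506 higher and 251 lower. With a replicate block 444 were higher and 280 lower, but libraries with the same number did not deviate together (r = 0.0349 between their deviations, 2 pairs), so the numbers do not pair them. Among 63 named genes that were called, 858 of 890 values under the 15 alternatives kept the call, 32 lost it and 0 reversed. Outside the treat test, *ssp-10*, *noah-1*, *pals-24*, *pals-20*, *btb-8* and *rps-19* lost it. Of 41 lists, 21 had a median that changed sign. The depth of the libraries is unknown, and genes below 1 RPKM were not tested.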
